A study of Mus musculus with 12 samples.

Results

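The voltage-gated sodium channel alpha genes encode the pore-forming subunits of the channels that carry the upstroke of the action potential. The 8 genes described here were Scn1a, Scn2a, Scn3a and Scn8a, the channel genes of brain, and Scn4a, Scn9a, Scn10a and Scn11a, whose channels are best known from skeletal muscle and from peripheral sensory neurons. They were chosen by name, not by any measured value, from the 23882 genes listed in every library, though earlier results of these data were known. The heart channel was not analysed here. All 8 were among the 19826 genes with at least 500 calls in every library, so none was lost to a filter on low coverage.

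The measurement was DNA methylation at cytosines outside CG dinucleotides (mCH), read by whole genome bisulfite sequencing of mouse cortex and summed over each gene. Each value is the percentage of a gene's non-CG cytosine calls that were methylated. The study asked how miR-29, a microRNA family, bears on this mark as the brain matures. The miR29 KO group (4 libraries) and its WT group (4 libraries) came from cortex at postnatal day 40 (P40). The group labelled Dnmt3a mi5 (2 libraries), whose titles read DNMT3AmiR29MUT, and its WT group (2 libraries) came from cortex at 4 months. All mice were on the C57BL/6 background. The labels do not say which miR-29 genes the knockout lacks, in which cells they are lost, or whether animals were pooled, and methylation calls cannot check either allele.

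Methylation at non-CG cytosines is rare in most tissues of the body and is known to build up in neurons after birth, when the methyltransferase DNMT3A lays it down. Gene bodies that are strongly transcribed in neurons tend to carry little of it. Each sodium channel is built around 1 large alpha subunit, and the alpha genes differ in where they are used. Those of brain sit at the axon initial segment and the nodes of Ranvier of central neurons, whereas Scn10a and Scn11a are known for pain-sensing neurons of the dorsal root ganglia.

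The 3 mature miR-29 sequences are shown because the knockout is named for this family and the titles of the Dnmt3a mutants refer to it. They share their seed (bases 2 to 8, in capitals) and differ further along. They are RefSeq sequences placed on GRCm38.p6, at chr6:31062673-31062694 on the minus strand, chr1:195037091-195037113 on the plus strand and chr1:195037600-195037621 on the plus strand.
miR-29a-3p: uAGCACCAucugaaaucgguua
miR-29b-3p: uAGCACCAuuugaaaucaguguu
miR-29c-3p: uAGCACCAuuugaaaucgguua

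Start-site windows from RefSeq (250 bases before to 50 after the start, GRCm38.p6) were found for 7 of the 8 genes, the exception being Scn3a, and gave 9 windows. The windows of Scn2a, which had the lowest level of the family, of Scn10a, which had the highest level in 11 of 12 libraries, and of Scn8a, which was called higher with age relative to other genes, are printed to show which bases the mark concerns. The motif searched was CG, which reads the same on both strands, and it is in capitals. Every other c or g, read on its own strand, is a non-CG cytosine. The table holds 2 windows each for Scn2a and Scn8a, and the one with more CG is printed. The Scn2a window is chr2:65668436-65668735 (plus strand), the Scn8a window chr15:100870395-100870694 (plus strand) and the Scn10a window chr9:119718983-119719282 (minus strand).
Scn2a: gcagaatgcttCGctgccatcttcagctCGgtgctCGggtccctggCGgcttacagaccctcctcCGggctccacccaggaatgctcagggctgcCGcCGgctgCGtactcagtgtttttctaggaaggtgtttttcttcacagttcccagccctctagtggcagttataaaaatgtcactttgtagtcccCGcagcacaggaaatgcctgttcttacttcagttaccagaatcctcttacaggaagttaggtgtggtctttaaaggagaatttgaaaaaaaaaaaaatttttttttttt
Scn8a: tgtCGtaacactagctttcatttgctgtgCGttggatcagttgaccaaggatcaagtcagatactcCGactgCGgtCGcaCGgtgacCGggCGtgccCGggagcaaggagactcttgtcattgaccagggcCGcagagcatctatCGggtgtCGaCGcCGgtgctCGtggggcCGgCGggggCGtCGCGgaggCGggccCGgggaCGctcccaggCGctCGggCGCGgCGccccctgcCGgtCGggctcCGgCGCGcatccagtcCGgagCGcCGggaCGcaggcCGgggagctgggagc
Scn10a: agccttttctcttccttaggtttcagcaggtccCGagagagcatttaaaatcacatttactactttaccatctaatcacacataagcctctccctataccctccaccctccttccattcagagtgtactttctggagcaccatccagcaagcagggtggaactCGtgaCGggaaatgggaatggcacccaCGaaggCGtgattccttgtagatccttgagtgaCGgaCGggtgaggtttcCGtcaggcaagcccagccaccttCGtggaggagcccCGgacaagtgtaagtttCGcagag
The Scn2a window held 9 CG and 125 non-CG cytosines over both strands. The Scn8a window held 38 CG and 134 non-CG cytosines, and 95.05% of the 32851 windows of the table held fewer CG. The Scn10a window held 11 CG and 133 non-CG cytosines. A CG was present in 94.6% of all windows, with a median of 7. The windows not printed held 3 CG for Scn2a and 12 for Scn8a, so the CG count differed between the starts of a single gene as well as between genes. No source used here gives how far the gene-wide calls reach into these windows, so the letters describe the windows and not the measured levels.

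Depth was ample for this family. Libraries held between 399564631 and 732986400 non-CG calls over all genes, and the 4-month libraries were the shallower ones. Within a single library the family's calls ran from 7509 over Scn4a to 136854 over Scn1a. The 95% Wilson interval of a single library's level was at most 0.735 points wide for Scn4a and at most 0.154 points for Scn2a (intervals cover counting error only). Replicate 4 of the miR29 KO libraries stood apart, with a mean gene level of 1.72% against 2.15% to 2.46% in the other miR29 KO libraries and 1.28% to 1.54% in WT libraries at P40. In each group 1 library had low coverage of Y-linked genes.

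mCH was higher in miR29 KO than in WT cortex over all 8 channel genes at P40, by factors of 1.36 (Scn8a) to 1.78 (Scn4a). At 4 months it was higher in Dnmt3a mi5 than in WT cortex over all 8, by factors of 1.55 (Scn8a) to 2.15 (Scn4a). Neither result was particular to the family: 76.5% of all tested genes were called higher at P40 and 58.7% at 4 months. Scn2a had the lowest level of the family and Scn8a the second lowest in 12 of 12 libraries, and Scn10a had the highest in 11 of 12. The called differences were tested with a quasi-binomial logistic model per gene, with Benjamini-Hochberg adjusted p under 0.05 over all tested genes, and effects are given as log2 odds ratios. In whole cortex, more cells that carry the mark and more of the mark per cell cannot be told apart.

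**Figure D1:**
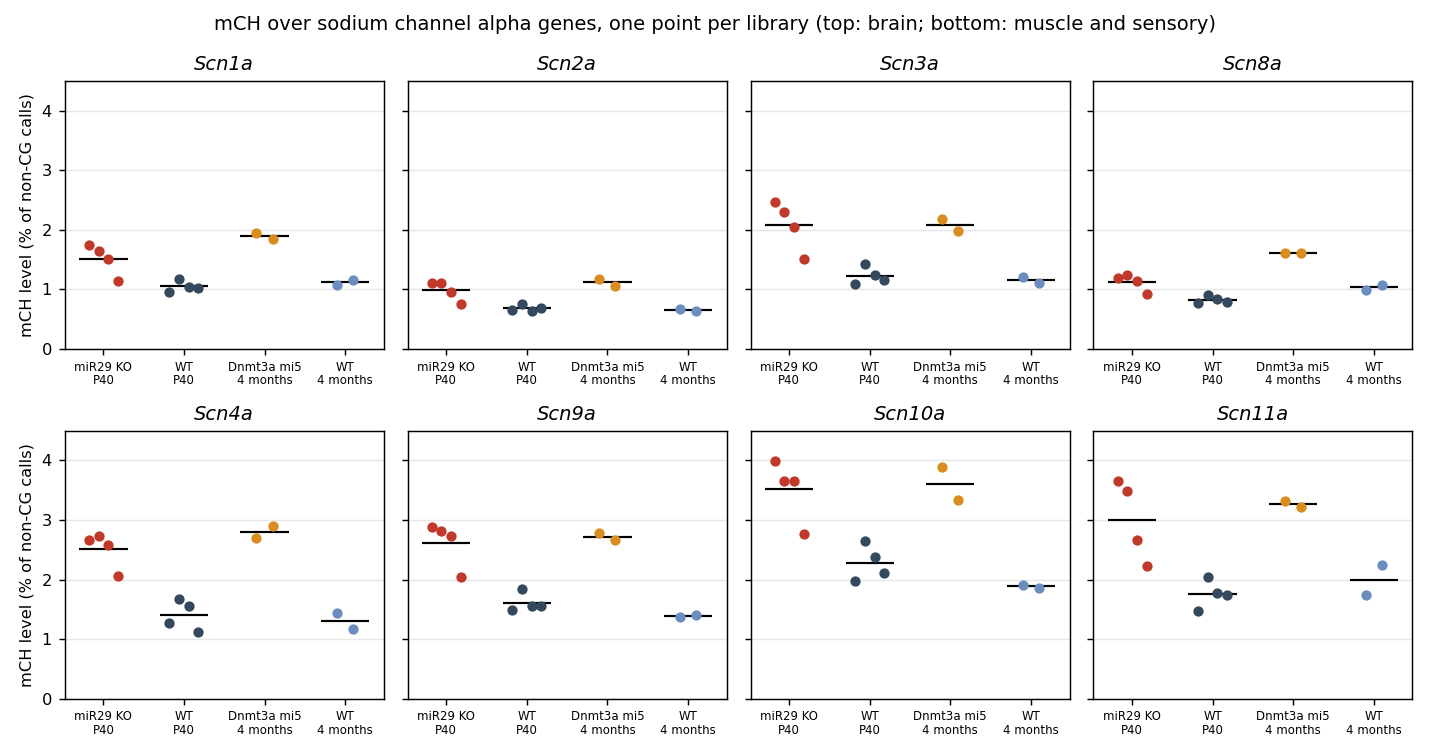
mCH level (percent of non-CG calls, vertical axis from 0) of each channel gene in each of the 12 libraries, by group; a point is a library and a black line is the group mean. Every miR29 KO and Dnmt3a mi5 mean lies above its WT mean, and the top row (brain channels) lies on average lower than the bottom row (muscle and sensory channels).

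Scn1a encodes Nav1.1, the main sodium channel of fast-spiking inhibitory interneurons, and its loss causes Dravet syndrome in people. Its mCH level was 1.74%, 1.65%, 1.51% and 1.14% in the miR29 KO libraries, against 0.964%, 1.18%, 1.05% and 1.03% in WT libraries at P40. The last miR29 KO library fell inside the WT range, so Scn1a was the 1 member whose P40 groups overlapped. The log2 odds ratio was 0.53 (SE 0.15, adjusted p = 0.00354), while an exact two-sided permutation test over the 8 libraries alone gave p = 0.0571. In Dnmt3a mi5 libraries at 4 months the level was 1.95% and 1.85%, and in WT libraries of that age 1.08% and 1.15%. Both mutant libraries were well above both WT libraries, with a log2 odds ratio of 0.78 (SE 0.23, adjusted p = 0.00948).

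Scn2a encodes Nav1.2, which is found in excitatory neurons and early in development at the axon initial segment. It carried the least mCH of the family, at 1.11%, 1.105%, 0.963% and 0.754% in miR29 KO libraries and 0.657%, 0.746%, 0.639% and 0.693% in WT libraries at P40. The groups did not overlap, although the lowest miR29 KO library was close to the highest WT library. The log2 odds ratio was 0.53 (SE 0.17, adjusted p = 0.00932). The Dnmt3a mi5 libraries had 1.18% and 1.06% at 4 months, and the WT libraries had 0.662% and 0.643%. The difference there was 0.465 points, the smallest among the 8 genes in percentage points, although the log2 odds ratio of 0.78 (SE 0.28, adjusted p = 0.0243) equalled that of Scn1a at this rounding.

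Scn3a encodes Nav1.3, the channel most used before birth. Its level was 2.47%, 2.30%, 2.05% and 1.52% in miR29 KO libraries and 1.08%, 1.43%, 1.25% and 1.16% in WT libraries at P40, with no overlap. Its log2 odds ratio of 0.79 (SE 0.15, adjusted p = 1.9e-04) was the largest among the brain channels. At 4 months it stood at 2.18% and 1.97% in Dnmt3a mi5 libraries and 1.21% and 1.103% in WT libraries, with a log2 odds ratio of 0.85 (SE 0.24, adjusted p = 0.00758). The means of the mutant groups at both ages were 2.08%.

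Scn8a encodes Nav1.6, the main channel of mature axon initial segments and nodes. Its level was 1.19%, 1.24%, 1.14% and 0.928% in miR29 KO libraries and 0.766%, 0.898%, 0.837% and 0.796% in WT libraries at P40. The groups did not overlap, and the log2 odds ratio of 0.46 (SE 0.15, adjusted p = 0.00938) was the smallest of the family. The 4-month Dnmt3a mi5 libraries had 1.604% and 1.605%, against 0.991% and 1.08% in WT libraries. That difference, a log2 odds ratio of 0.64 (SE 0.25, adjusted p = 0.0320), was again the smallest of the family.

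Scn4a encodes Nav1.4, the channel of skeletal muscle. Its level was 2.66%, 2.73%, 2.58% and 2.06% in miR29 KO libraries and 1.28%, 1.68%, 1.55% and 1.12% in WT libraries at P40, with every miR29 KO library above every WT library. This gave a log2 odds ratio of 0.87 (SE 0.14, adjusted p = 5.8e-05). At 4 months it was 2.70% and 2.90% in Dnmt3a mi5 libraries and 1.43% and 1.17% in WT libraries, with a log2 odds ratio of 1.13 (SE 0.28, adjusted p = 0.00414). Scn4a had the largest log2 odds ratio of the family in both comparisons and also the fewest calls.

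Scn9a encodes Nav1.7, the channel of peripheral sensory and sympathetic neurons whose loss abolishes pain in people. Its level was 2.88%, 2.82%, 2.73% and 2.05% in miR29 KO libraries and 1.49%, 1.84%, 1.55% and 1.55% in WT libraries at P40. The groups did not overlap, with a log2 odds ratio of 0.73 (SE 0.13, adjusted p = 7.6e-05). Levels in Dnmt3a mi5 libraries were 2.78% and 2.66% at 4 months and those in WT libraries were 1.37% and 1.41%. This was a log2 odds ratio of 0.99 (SE 0.21, adjusted p = 0.00300), and the libraries of each group lay close together.

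Scn10a encodes Nav1.8, the tetrodotoxin-resistant channel of pain-sensing neurons. It had the highest level of the family, at 3.99%, 3.65%, 3.66% and 2.77% in miR29 KO libraries and 1.98%, 2.65%, 2.37% and 2.11% in WT libraries at P40. The lowest miR29 KO library was just above the highest WT library. The log2 odds ratio was 0.66 (SE 0.12, adjusted p = 9.8e-05). At 4 months the Dnmt3a mi5 libraries had 3.89% and 3.33%, against 1.91% and 1.87% in WT libraries, a log2 odds ratio of 0.95 (SE 0.23, adjusted p = 0.00371). The difference of 1.72 points was the largest of the family at that age.

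Scn11a encodes Nav1.9, a channel of slow, persistent current in the same pain-sensing neurons. Its level was 3.66%, 3.48%, 2.66% and 2.23% in miR29 KO libraries and 1.47%, 2.04%, 1.77% and 1.74% in WT libraries at P40. The groups did not overlap, but the miR29 KO libraries spread more widely than for any other member (SD 0.677 points). The log2 odds ratio was 0.81 (SE 0.15, adjusted p = 1.3e-04). Later, at 4 months, the level was 3.33% and 3.22% in Dnmt3a mi5 libraries and 1.74% and 2.24% in WT libraries, with a log2 odds ratio of 0.74 (SE 0.27, adjusted p = 0.0285). The WT libraries lay further apart than for any other member at that age.

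**Figure D2:**
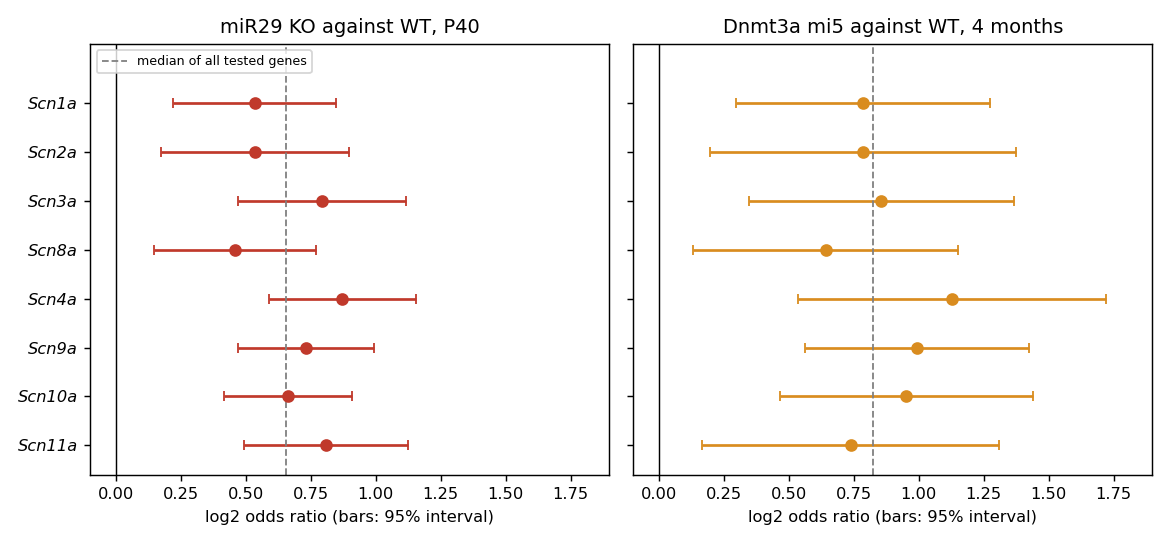
Log2 odds ratio of mCH (horizontal axis; bars are 95% intervals) for each gene, miR29 KO against WT at P40 on the left and Dnmt3a mi5 against WT at 4 months on the right; the dashed line is the median of all tested genes, 0.65 at P40 and 0.83 at 4 months. All 16 intervals lie above 0, and each of them holds the all-gene median of its comparison.

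The groups did not overlap for 7 of 8 channel genes at P40, where 57.1% of all tested genes were also higher without overlap, and for 8 of 8 at 4 months, where 86.2% were. For the 7 genes the exact two-sided permutation test gave p = 0.0286, the smallest that 4 against 4 libraries allow. With 2 against 2 libraries no exact test can go below 0.333, and the 4-month calls share their spread with the P40 libraries. Fitted with the same model on the 4 libraries of that age alone, all 8 were called too (adjusted p 2.2e-11 to 6.6e-06). The spread then came from 2 libraries a group and was moderated across all tested genes. These p-values therefore draw on the spread of other genes and not on these 4 libraries of each gene alone. No member's P40 call was lost when any 1 library was left out. Without miR29 KO replicate 4, the library that stood apart, all 8 were still called, along with 16013 of all tested genes. The log2 odds ratios were then 0.53 for Scn8a, 0.64 for Scn1a, 0.91 for Scn3a and 0.93 for Scn11a, and the Scn1a groups would not overlap. At 4 months Scn4a, Scn9a and Scn10a kept theirs whichever library was left out. Fewer members were called when any 1 of the 4 libraries of that age was left out, and fewer of all tested genes were too. Each such fit leaves 1 library in a group, and the log2 odds ratios then ran from 0.56 (Scn11a) to 1.285 (Scn4a), both without WT replicate 1. The log2 odds ratios stayed positive throughout, and each lone library was assumed to vary like the other groups.

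The median log2 odds ratio of the 8 genes was 0.70 at P40 and 0.82 at 4 months, beside 0.65 and 0.83 over all tested genes. At P40 the 3 genes below the all-gene median were Scn1a, Scn2a and Scn8a, all of them brain channels. At 4 months those 3 and Scn11a lay below it. When every library was centred on its own median gene, which removes the change common to all genes, none of the 8 genes was called at P40 (0.0% of all tested genes were) and none at 4 months (0.0151% were). A model with a library offset, added after seeing the data, called Scn8a alone at P40, as lower in miR29 KO cortex relative to the other genes (log2 odds ratio -0.23, SE 0.058, adjusted p = 0.0266). In that model 3.59% of all tested genes were called lower. The centred limma value for Scn8a was -0.22 (SE 0.066) with an adjusted p of 0.153. Under both methods Scn1a, Scn2a, Scn8a and Scn10a took a negative sign at P40. The centred value of Scn10a was near 0 (-0.015, SE 0.055, adjusted p = 0.916), and its uncentred log2 odds ratio of 0.66 lay just above the all-gene median.

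The 2 mutant effects were compared directly with an interaction term, miR29 KO against WT at P40 minus Dnmt3a mi5 against WT at 4 months. No channel gene was called, and neither was any gene tested (0.0%). The quasi-binomial model gave adjusted p-values of 0.998 for all 8 members at this rounding, with 0 members and 289 of all genes at an unadjusted p under 0.05. The differences ran from -0.29 for Scn10a (95% interval -0.84 to 0.26) to 0.071 for Scn11a (95% interval -0.58 to 0.73). These intervals are wide enough to hold effects of either direction, so the 2 alleles were not shown to differ or to act alike over this family.

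The mean level of the brain channels lay below that of the muscle and sensory channels in every library. The brain channels averaged 1.42 ± 0.244% and the muscle and sensory channels 2.91 ± 0.454% in miR29 KO libraries (SD, n = 4). In WT libraries at P40 the brain channels averaged 0.949 ± 0.084% and the others 1.76 ± 0.222% (SD, n = 4). At 4 months the values were 1.68 ± 0.076% and 3.10 ± 0.105% in Dnmt3a mi5 libraries, and 0.990 ± 0.007% and 1.64 ± 0.041% in WT libraries (SD, n = 2). Each brain channel lay below each muscle or sensory channel, all 16 gene pairs, in 11 of the 12 libraries. The exception was WT replicate 4 at P40, where Scn3a (1.16%) lay above Scn4a (1.12%) and 15 of 16 pairs kept the order. These are descriptions of 8 genes without a test.

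The gap between the classes was wider in the mutants in percentage points. Brain minus muscle and sensory channels came to -1.49 ± 0.210 points in miR29 KO libraries, against -0.813 ± 0.142 points in WT libraries at P40. It was -1.42 ± 0.029 points in Dnmt3a mi5 libraries, against -0.652 ± 0.035 points in WT libraries at 4 months. As a ratio, the brain class stood at 0.488 ± 0.009 of the other class in miR29 KO libraries (0.476 to 0.495), against 0.541 ± 0.024 in WT libraries at P40 (0.519 to 0.564). At 4 months it stood at 0.540 ± 0.006 in Dnmt3a mi5 libraries (0.536 to 0.545), against 0.603 ± 0.011 in WT libraries (0.595 to 0.611). In neither comparison did the mutant and WT ratios overlap. The ratios given here were taken without subtracting a background, and how far a background common to both classes moves them was not tested. The ratios were not tested, and such small groups can separate without any difference. Ratios of other gene sets were not taken, so whether the lower ratio is particular to these classes was not tested. Averaged over the genes of a class, mCH was higher by 0.475 points for the brain channels and 1.15 points for the others in miR29 KO cortex, and by 0.686 and 1.46 points in Dnmt3a mi5 cortex.

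**Figure D3:**
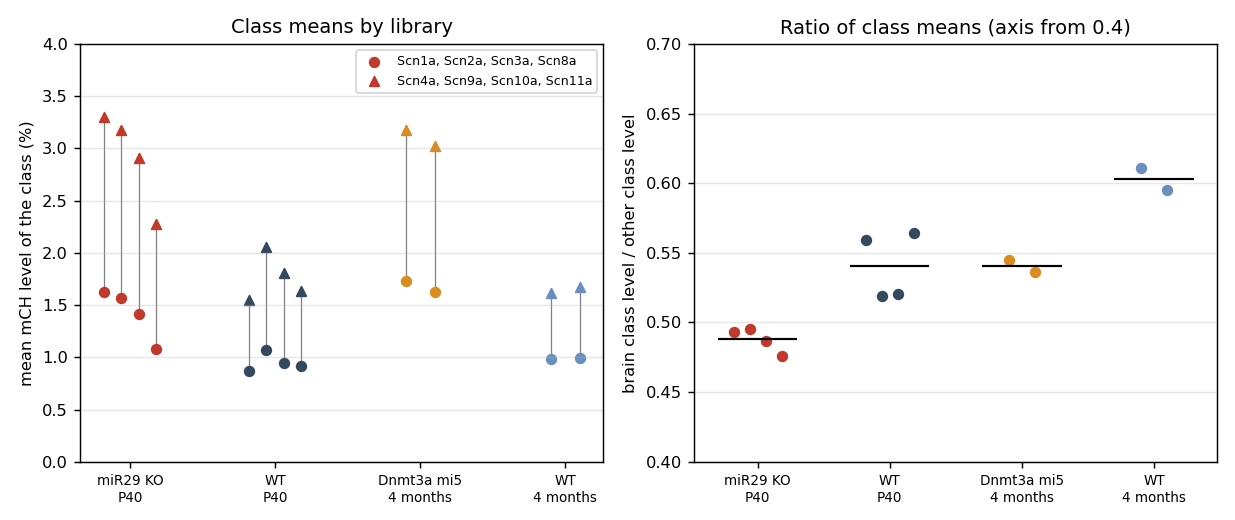
Left, mean mCH level (percent) of the brain channels (circles) and of the muscle and sensory channels (triangles) in each library; right, their ratio, on an axis that starts at 0.4, with black lines at group means. The circles lie below the triangles in all 12 libraries, and the ratio is lower in miR29 KO (0.488) than in WT at P40 (0.541) and lower in Dnmt3a mi5 (0.540) than in WT at 4 months (0.603).

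In WT cortex at P40 the ascending order of the means was Scn2a, Scn8a, Scn1a, Scn3a, Scn4a, Scn9a, Scn11a and Scn10a. The library ranges of Scn2a and Scn8a did not overlap, nor did those of Scn8a and Scn1a. Each of the later neighbours in this order overlapped in range, although within libraries Scn3a exceeded Scn1a, and Scn10a exceeded Scn11a, in 4 of 4. In miR29 KO libraries the order was the same and all neighbouring ranges overlapped. In Dnmt3a mi5 libraries Scn4a and Scn9a changed places, with overlapping ranges. In WT libraries at 4 months Scn11a came above Scn10a on average, but in only 1 of the 2 libraries. Placed among all tested genes of WT cortex at P40, Scn2a had a higher level than 20.9% of them, Scn8a than 28.6%, Scn1a than 39.5% and Scn3a than 46.6%. Scn4a was above 53.6%, Scn9a above 61.7%, Scn11a above 67.8% and Scn10a above 87.6%. The median gene thus ran between the channel classes.

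**Figure D4:**
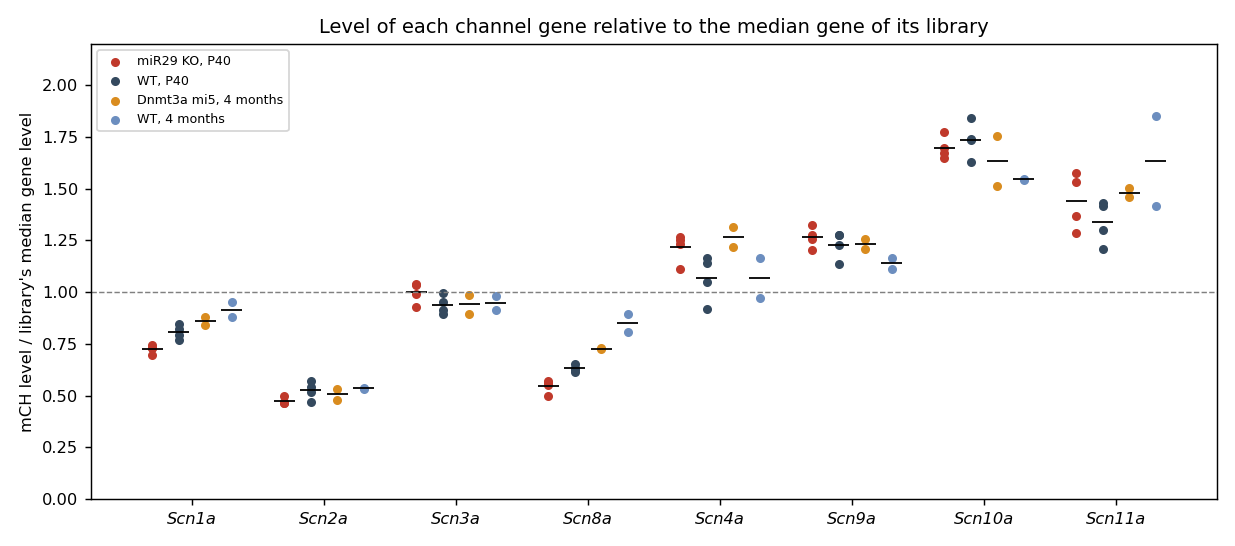
mCH level of each channel gene divided by the median gene level of the same library (vertical axis, no unit; dashed line at 1), one point per library with group means as black lines. Scn8a stands at 0.849 in WT at 4 months and 0.631 in WT at P40, and Scn1a, Scn2a and Scn8a lie below 1 in every library.

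With age, Scn8a was the only brain channel whose WT levels separated. Its WT level averaged 1.04 ± 0.063% at 4 months (SD, n = 2) and 0.824 ± 0.057% at P40 (SD, n = 4), and both 4-month libraries lay above all 4 P40 libraries. Such an upward separation was seen for 6.03% of all tested genes. The log2 odds ratio of 0.33 (SE 0.22) was not called (adjusted p = 0.9998), and the exact two-sided permutation test gave p = 0.133, the smallest that 2 against 4 libraries allow. Relative to the median gene of each library, however, Scn8a was at 0.849 ± 0.062 at 4 months and 0.631 ± 0.017 at P40. Centred limma called it higher at 4 months by 0.39 on the log2 scale (SE 0.081, adjusted p = 0.04999, just under the threshold), along with 0.979% of all tested genes. The library-offset model gave a log2 odds ratio of 0.43 (SE 0.085, adjusted p = 0.00638), with 1.44% of genes called higher. Scn1a also separated on the relative scale, at 0.878 to 0.952 in WT libraries at 4 months and 0.768 to 0.848 at P40, and was not called (centred log2 difference 0.17, SE 0.069, adjusted p = 0.282). Scn10a separated downwards on that scale, at 1.54 to 1.55 and 1.63 to 1.84, without a call (-0.16, SE 0.068, adjusted p = 0.291). How many of all tested genes separated on the relative scale was not counted, so these separations have no background to stand beside. In the centred fit 4 members had an unadjusted p under 0.05 with age, namely Scn1a, Scn8a, Scn10a and Scn11a, and Scn8a alone was called.

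The mutant libraries showed the same order of values for Scn8a, with a relative level of 0.726 ± 0.003 in Dnmt3a mi5 at 4 months and 0.544 ± 0.033 in miR29 KO at P40, groups that differ in genotype as well as age. Scn9a and Scn10a separated the other way in WT cortex: Scn9a averaged 1.39% at 4 months and 1.61% at P40, and Scn10a averaged 1.89% and 2.28%. Both 4-month libraries lay below all 4 P40 libraries for each, as for 12.1% of all tested genes, and neither gene was called. The remaining 5 members overlapped between the ages. Without centring, the model called none of the 8 with age, with 0 members and 462 of all genes at an unadjusted p under 0.05, and 0.131% of all genes called. Age cannot be told apart from the line the 4-month mice belong to, or from depth, which was lower in all 4-month libraries.

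Scn3a, Scn2a, Scn1a and Scn9a lie together on chromosome 2, Scn10a and Scn11a lie together on chromosome 9, and Scn4a and Scn8a lie on chromosomes 11 and 15. Neighbouring genes of a cluster differed in level. Along chromosome 2 at P40, in the gene order of the RefSeq table, Slc38a11 averaged 3.48 ± 0.676% in miR29 KO and 2.18 ± 0.129% in WT libraries, and its neighbour Scn3a averaged 2.08 ± 0.417% and 1.23 ± 0.151% (SD, n = 4 each). The next genes were Scn2a, at 0.982 ± 0.166% and 0.684 ± 0.047%, and Csrnp3, at 1.25 ± 0.1996% and 0.861 ± 0.051%. Galnt3 then stood at 4.04 ± 0.667% in miR29 KO and 2.44 ± 0.281% in WT libraries, the highest of the stretch. Ttc21b had 2.04 ± 0.441% and 1.33 ± 0.136%, Scn1a had 1.51 ± 0.266% and 1.06 ± 0.092%, and Scn9a, beside it, had 2.62 ± 0.386% and 1.61 ± 0.156%. Gm1322, the next gene whose symbol does not begin with Scn, had 3.41 ± 0.727% and 2.13 ± 0.394%. The level thus went down, up, down and up again along this stretch, with its low points at Scn2a and Scn1a.

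**Figure D5:**
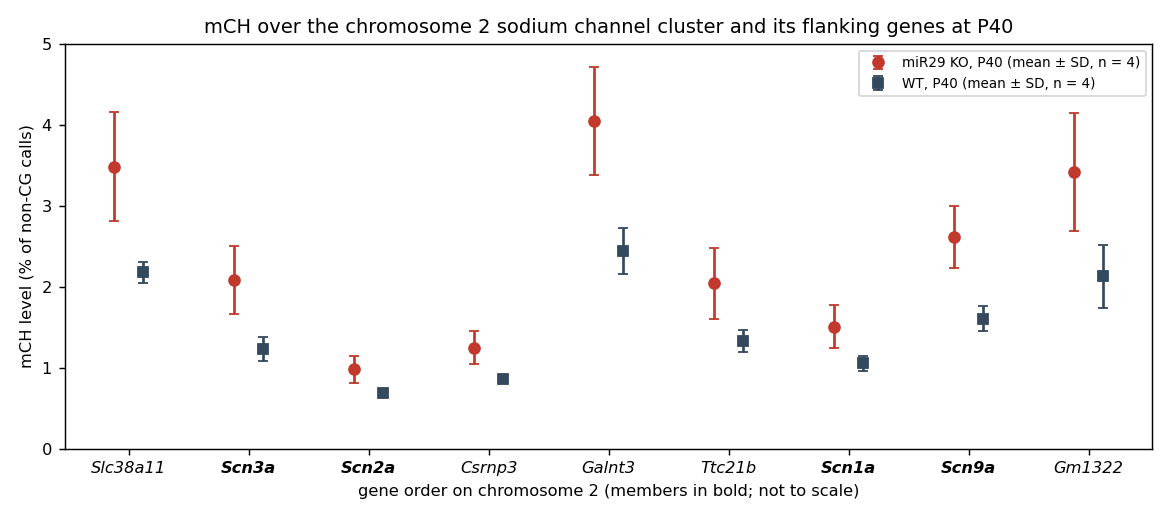
Mean mCH level (percent; bars are SD, n = 4) at P40 of the genes of the chromosome 2 cluster and their flanks, in their order on the chromosome (not to scale), for miR29 KO (circles) and WT (squares); sodium channel genes are in bold. Scn2a is the lowest gene at 0.982% and 0.684%, and Galnt3 is the highest at 4.04% and 2.44%.

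The nearest tested protein-coding genes on either side of the 8 members, passing over genes whose symbols begin with Scn, came to 10 distinct genes. All 10 were called higher in miR29 KO cortex at P40 and 6 in Dnmt3a mi5 cortex at 4 months, with median log2 odds ratios of 0.68 and 0.79. Over all tested genes 76.5% and 58.7% were called higher, so the 4-month share of the flanks was close to that background. The flanks of Scn8a differed from it in level: Slc4a8 averaged 1.78 ± 0.098% in miR29 KO and 1.14 ± 0.138% in WT libraries at P40, and Fignl2, covered by few calls, averaged 3.50 ± 1.05% and 2.24 ± 0.7101%. The flanks of the Scn10a and Scn11a pair lay well below it, with Exog at 1.84 ± 0.257% and 1.14 ± 0.172%, and Wdr48 at 0.825 ± 0.146% and 0.578 ± 0.056%. Genes of near-identical course over the 12 libraries were found for each member among 6089 candidate genes with at least 20000 calls on average. The closest were Hecw2 for Scn1a (mean absolute difference 0.040 points), Tango2 for Scn2a (0.029), Ift74 for Scn3a (0.052), Cdk13 for Scn8a (0.044), Alox5 for Scn4a (0.091), Tmod3 for Scn9a (0.054), Utrn for Scn10a (0.089) and Prcp for Scn11a (0.137). These were chosen for likeness, so their values carry no test.

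Partners of the alpha subunits were read from lists chosen by name. Of the 3 beta subunit genes read here, which encode auxiliary subunits that set gating and membrane placement, 2 were called higher in miR29 KO cortex at P40 and 2 in Dnmt3a mi5 cortex at 4 months. At P40, Scn3b averaged 1.51 ± 0.393% in miR29 KO and 0.891 ± 0.027% in WT libraries (log2 odds ratio 0.78, SE 0.19, adjusted p = 0.00112), and Scn4b averaged 2.41 ± 0.287% and 1.93 ± 0.347% (0.34, SE 0.14, adjusted p = 0.0309). Scn2b, at 0.956 ± 0.117% and 0.807 ± 0.085%, was not called (0.25, SE 0.20, adjusted p = 0.266). At 4 months the called genes were Scn2b, at 1.42 ± 0.488% in Dnmt3a mi5 and 0.633 ± 0.091% in WT libraries (1.19, SE 0.39, adjusted p = 0.0157), and Scn3b, at 1.62 ± 0.152% and 0.931 ± 0.194% (0.77, SE 0.32, adjusted p = 0.0461). Scn4b was not called there (adjusted p = 0.103).

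All 4 FGF homologous factor genes, whose proteins bind the tail of the alpha subunits, were called higher at P40 and 2 at 4 months. Fgf14 (smallest P40 p) averaged 1.72 ± 0.266% in miR29 KO and 1.09 ± 0.090% in WT libraries at P40, and Fgf13 (largest P40 p) averaged 2.85 ± 0.837% and 1.74 ± 0.251%. All 8 scaffold and adhesion genes of the initial segment and node were called higher at P40 and 6 at 4 months, with median log2 odds ratios of 0.57 and 0.77. Among them Cntn1 (smallest P40 p) averaged 1.99 ± 0.328% and 1.28 ± 0.115%, and Sptbn1 (largest P40 p) averaged 0.770 ± 0.132% and 0.522 ± 0.048%. Nalcn, the sodium leak channel outside the family, averaged 2.33 ± 0.396% in miR29 KO and 1.42 ± 0.174% in WT libraries at P40 and was called higher in both comparisons. These shares stand beside the 76.5% and 58.7% of all tested genes called higher.

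Methylation over cell type marker genes is not their expression, so it cannot show how many cells of a type were present. The lists are given as a description. At P40, 3 of 6 neuron marker genes were called higher in miR29 KO cortex, with 5 of 5 astrocyte, 5 of 5 oligodendrocyte, 4 of 4 microglia and 3 of 3 tested endothelial marker genes. The median level of the neuron list was 1.06% in miR29 KO and 0.770% in WT libraries, near the brain channels. That of the astrocyte list was 3.71% and 2.37%, near Scn10a. The other lists had medians of 2.63% and 1.66% (oligodendrocyte), 3.16% and 1.77% (microglia) and 4.08% and 2.46% (endothelial). Neither the neuron list nor the astrocyte list was uniform. In miR29 KO libraries the neuron genes Gad1 (2.81%) and Gad2 (2.29%) lay above every brain channel mean. Slc17a7 (0.692%), Snap25 (0.693%) and Syt1 (0.887%) lay below all of those means, and Rbfox3 (1.23%) lay among them. The astrocyte genes ran from 1.68% (Slc1a2) to 4.24% (Slc1a3) in miR29 KO libraries. The counts at 4 months were 3 of 6, 5 of 5, 4 of 5, 4 of 4 and 3 of 3. Among all tested genes 76.5% were called higher at P40 and 58.7% at 4 months, and with lists this short no difference between the lists was tested. What part cell make-up had in the levels of the channel genes was not tested.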

How the data were processed

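Cortical DNA of C57BL/6 mice was bisulfite sequenced with unmethylated lambda DNA as a conversion control, per the labels' protocols. The submitters' processing notes name BSMAP and the mm9 genome. The 12 tables the authors deposited hold 2 values per RefSeq transcript: the count of methylated non-CG calls, and a total that is not always whole and was treated as an expected count and rounded (whole for 35.7% to 62.2% of rows, by library). No source used here says how that total arose. Of 36672 rows, 300 had no symbol in the RefSeq table (GRCm38.p6, used for names, gene order and sequences) and 1395 with repeated identifiers were left out. The transcript with most calls stood for its gene.

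Each of 19826 genes was fitted over all 12 libraries with quasi-binomial logistic regression, using group means. The dispersion (median overdispersion 5.13) was moderated with limma 3.58.1 (squeezeVar, trend, robust) in R 4.3.3, with Benjamini-Hochberg adjustment over all tested genes and a threshold of 0.05. Centred values are limma fits of log2(percent + 0.1) less the library's median gene. Single-gene exact permutation tests, levels and figures used scipy 1.17.1, pandas 2.3.3, numpy 2.4.6 and matplotlib 3.10.9 under Python 3.11.15. The model was run on simulated data with changes in a small share of genes and no shift common to all genes. That run does not bear on such a shift, and no result of it is used here.

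The members and lists were chosen with earlier results of these data known. All 8 members are named; for the other lists 3 beta subunit genes (1 planned list gene is not reported here) and, of 2 further lists, the genes of smallest and largest P40 p are named, with the nearest flanking genes and the gene of most similar level. Replicates are separate samples and nothing more is stated of them, so a p-value reflects only how these samples vary. Libraries of a group always differed by more than counting noise (lowest chi-square per gene 2.73). The alternatives changed the coverage minimum, scale, pseudocount, dispersion, centring, background, transcript choice, block and libraries used. Genes that overlap share calls, and reads of similar channel genes may be assigned with error.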

Additional observations from a re-analysis of the deposited data

How the results depend on the processing

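Over 25 settings on a log scale without centring, including each library left out, the log2 effects of the 8 genes stayed positive at P40 (200 of 200 values, 0.29 to 0.98) and at 4 months (200 of 200, 0.46 to 1.28); 0 calls were lost at P40 and 18 at 4 months. At 4 months the members called ranged from 3 to 8 and all genes called from 4673 to 13329 when 1 library was left out (adjusted p of the lost calls 0.052 to 0.181). Scn11a also lost its call without moderation. The 1st percentile of the gene levels was 0.219% to 0.287% by library, and how much of it is background was not tested. Subtracting it raised the log2 odds ratio of Scn2a from 0.53 to 0.69 at P40 and from 0.78 to 1.01 at 4 months. For Scn10a, the gene of high level, the values went from 0.66 to 0.71 and from 0.95 to 1.03. Centring on the library median left 0 members and 0 of all genes called at P40, 0 members and 3 of all genes at 4 months, and 1 member with age (Scn8a). The library offset, chosen after seeing the data, left 1 member and 910 genes at P40 and 0 members and 7 genes at 4 months, and called 1 member with age. With centring and with the offset the sign turned at P40 for Scn1a (-0.153 and -0.154), Scn2a (-0.164 and -0.154), Scn8a (-0.219 and -0.229) and Scn10a (-0.015 and -0.029). At 4 months it turned for Scn1a (-0.089 and -0.087), Scn2a (-0.115 and -0.088), Scn3a (-0.011 and -0.016), Scn8a (-0.220 and -0.231) and Scn11a (-0.108 and -0.135). Both methods remove the shift common to all genes by construction. The brain minus muscle and sensory difference at 4 months moved to -1.30 points (class medians) or -1.37 points (calls pooled) in Dnmt3a mi5 libraries, and to -0.549 points (class medians) in WT libraries; the cause was not tested.

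No pairing by replicate number was seen at P40, though such correlations cannot exclude it. Deviations of same-numbered libraries correlated there at -0.011, -0.040, -0.054 and 0.109, within the -0.136 to 0.206 of differently numbered ones. At 4 months the value was -0.089, but with 2 libraries a group all such correlations are equal in size, so it cannot show pairing. With the number as a replicate block, 8 members at P40 and 8 at 4 months were called, with 15254 and 12341 of all genes, and no member's call changed; no block could be fitted between the ages. With 2 libraries a group at 4 months, small differences between members could not be seen, and the values do not separate cell types.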

Other observations

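For 2 members the tables list a further transcript with values of its own, which was used only when all transcripts of a gene were summed (Scn2a 0.51 at P40 and 0.78 at 4 months, Scn8a 0.46 and 0.63 as log2 odds ratios, all still called). The Scn2a transcript NM_001099298 had 1.06%, 1.12%, 0.907% and 0.724% in miR29 KO libraries and 0.650%, 0.717%, 0.661% and 0.711% in WT libraries at P40. Its Dnmt3a mi5 libraries had 1.13% and 0.957%, against 0.607% and 0.620% in WT libraries at 4 months. The Scn8a transcript NM_011323 had 1.199%, 1.17%, 1.17% and 0.967% in miR29 KO libraries and 0.764%, 0.858%, 0.885% and 0.788% in WT libraries at P40. Its Dnmt3a mi5 libraries had 1.597% and 1.42%, against 0.941% and 1.05% in WT libraries at 4 months. In each of these 4 sets every mutant library lay above every WT library, as for the transcripts used above. Of all tested genes, 57.1% at P40 and 86.2% at 4 months were also higher without overlap. The Scn2a transcript came close to overlap at P40, at 0.724% in a miR29 KO and 0.717% in a WT library.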
